A study of Mus musculus with 8 samples.

Results

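The genes described here are 8 genes of myelin and of Schwann cell membranes, *Gjc3*, *Mal*, *Plekhb1*, *S100b*, *Scn7a*, *Slitrk6*, *Pmp22* and *Cnp*, among 15111 genes measured in cultured mouse dermal fibroblasts. They were taken by symbol, and all 8 had 1 row each in the table. They were chosen by their normalised counts in the control and TGFβ1FKO libraries, which were already known, so their differences between the groups are a description. How many of them passed the tests run over the whole table is given beside the share of all genes. It is given again for the alternatives in processing, beside the number of all genes called, and nothing rests on it. Primary dermal fibroblasts came from the skin of tamoxifen-fed adult mice and were kept for 72 h in serum replacement medium on fibronectin before poly-A RNA was sequenced. The 4 control libraries carry the floxed *Tgfb1* alleles (Tgfb1fl/fl) and no Cre recombinase. The 4 TGFβ1FKO libraries carry the same floxed alleles together with Col1a2-CreERT, a tamoxifen-dependent Cre under the collagen I alpha 2 promoter, which is active in fibroblasts and related collagen-producing cells. Floxed alleles, tamoxifen and culture were thus shared by both groups. The sources used here do not state that each library is a separate mouse, so errors and p-values measure the spread between libraries, which may be technical.

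Schwann cells are the glia of peripheral nerves, including the nerves of the skin. Myelinating Schwann cells wrap 1 axon each in a stack of membrane that is held together by a small set of membrane proteins, and non-myelinating Schwann cells ensheath bundles of thin axons without myelin. *Sox10*, the transcription factor that Schwann cells need throughout their life, switches on many of these genes, and *Egr2* drives myelination. Some myelin proteins are also made by cells that form no myelin.

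The targeted gene was checked first. The normalised count of *Tgfb1* ranged from 1298 to 1483 in the control libraries and from 228.4 to 326.4 in the TGFβ1FKO libraries, and limma gave a log2 fold change of -2.31 with a Benjamini-Hochberg adjusted p of 1.53e-07. A normalised count is the number of reads on a gene divided by the size factor of the library, and 1 read was worth between 0.8304 and 1.1088 of it. The libraries held between 16988998 and 23071528 reads on the listed genes. All 10 fibroblast markers searched for were in the table, from *Col1a1* at 653490 ± 54463 (SD, n = 4) normalised counts in controls downwards, and their log2 fold changes lay between -0.14 and 0.10. *Vim* (0.10), *Dpt* (-0.08), *Dcn* (-0.14) and *Col1a1* (0.03) were among them. In bulk samples such as these, fewer cells of a type and less RNA per cell cannot be told apart.

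The 8 genes lie on 6 chromosomes of GRCm38. *Gjc3* is on the minus strand at chr5:137953461-137963098, *Mal* on the minus strand at chr2:127633226-127656695 and *Scn7a* on the minus strand of the same chromosome at chr2:66673425-66784914. *Plekhb1* is on the minus strand at chr7:100642892-100662414 and *Slitrk6* on the minus strand at chr14:110748580-110755149. *S100b* is on the plus strand at chr10:76253853-76261159. *Pmp22* and *Cnp* are both on the plus strand of chromosome 11, at chr11:63128982-63159547 and chr11:100574904-100591729. All are protein-coding. *S100b* overlaps *Dip2a* on the opposite strand but shares no exonic base with it, and *Dip2a* had a log2 fold change of 0.04. *Cnp* shares 154 exonic bases with *Dnajc7* on the opposite strand, which had a log2 fold change of -0.07. The libraries were not directional, so reads in those 154 bases cannot be assigned by strand.

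The sequence just before the start sites gives the CpG content, a feature that the choice of genes did not use. RefSeq (GRCm38.p6) lists 12 start sites for the 8 genes, and the 250 bases before each were read on the gene's strand. Printed here are *Gjc3*, *S100b* and *Slitrk6*, which had few reads, and the first 2 of the 4 start sites of *Pmp22*, which had many. Capitals mark CpG dinucleotides. The windows are chr5:137963099-137963348 (minus strand) for *Gjc3*, chr10:76253586-76253835 (plus strand) for *S100b*, chr14:110755150-110755399 (minus strand) for *Slitrk6*, and chr11:63128732-63128981 and chr11:63131207-63131456 (plus strand) for *Pmp22*.
Gjc3: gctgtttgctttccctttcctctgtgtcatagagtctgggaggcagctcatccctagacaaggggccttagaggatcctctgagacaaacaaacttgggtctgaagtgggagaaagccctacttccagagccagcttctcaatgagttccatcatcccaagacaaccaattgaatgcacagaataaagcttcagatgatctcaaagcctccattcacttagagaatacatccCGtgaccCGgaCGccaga
S100b: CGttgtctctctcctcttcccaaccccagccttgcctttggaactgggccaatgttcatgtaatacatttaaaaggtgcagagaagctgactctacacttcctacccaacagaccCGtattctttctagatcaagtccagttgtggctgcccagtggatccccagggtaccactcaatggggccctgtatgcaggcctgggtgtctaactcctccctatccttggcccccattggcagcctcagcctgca
Slitrk6: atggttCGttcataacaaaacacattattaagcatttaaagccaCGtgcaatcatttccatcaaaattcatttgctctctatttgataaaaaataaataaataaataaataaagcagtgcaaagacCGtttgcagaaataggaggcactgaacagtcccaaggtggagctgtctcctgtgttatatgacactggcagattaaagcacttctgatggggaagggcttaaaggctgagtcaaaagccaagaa
Pmp22 start 1: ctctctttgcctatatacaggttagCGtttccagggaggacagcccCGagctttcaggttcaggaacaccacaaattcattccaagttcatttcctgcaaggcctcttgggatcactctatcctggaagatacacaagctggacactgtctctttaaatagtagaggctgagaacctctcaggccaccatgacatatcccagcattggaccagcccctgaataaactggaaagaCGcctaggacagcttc
Pmp22 start 2: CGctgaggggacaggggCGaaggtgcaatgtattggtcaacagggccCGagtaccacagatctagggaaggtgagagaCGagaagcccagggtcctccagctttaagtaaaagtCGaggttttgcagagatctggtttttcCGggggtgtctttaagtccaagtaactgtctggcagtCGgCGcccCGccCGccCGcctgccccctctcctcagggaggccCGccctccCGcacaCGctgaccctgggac
The ratio of observed to expected CpG was 0.204 for *Gjc3*, 0.117 for *S100b* and 0.348 for *Slitrk6*, with 2 or 3 CpG in each window. Over all 32851 promoters in the RefSeq table the median ratio was 0.373 and the median GC content 52.4%. *Pmp22* had a ratio of 0.206 at start 1 and of 0.599 at start 2, with 3 and 14 CpG. Its start 3 (0.534) and start 4 (0.798) were also above the median, and so was the single start of *Cnp* (0.636). *Pmp22* is known for a promoter used in myelinating Schwann cells and another used more widely. The counts are per gene and do not tell from which start a transcript came. Of the other low-count genes, *Mal* had a ratio of 0.459, *Scn7a* of 0.17, and *Plekhb1* of 0.352 and 0.065 at its 2 starts. Of the 7 starts of the low-count genes 6 lay below the median of all promoters, and of the 5 starts of the abundant genes 4 lay above it. Those 5 starts belong to only 2 genes, and the windows of *Pmp22* start 3 and start 4 overlap, so starts do not count as replicates. Shares for other low-count or abundant genes were not taken, so no difference between the classes is drawn.

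**Figure D1:**
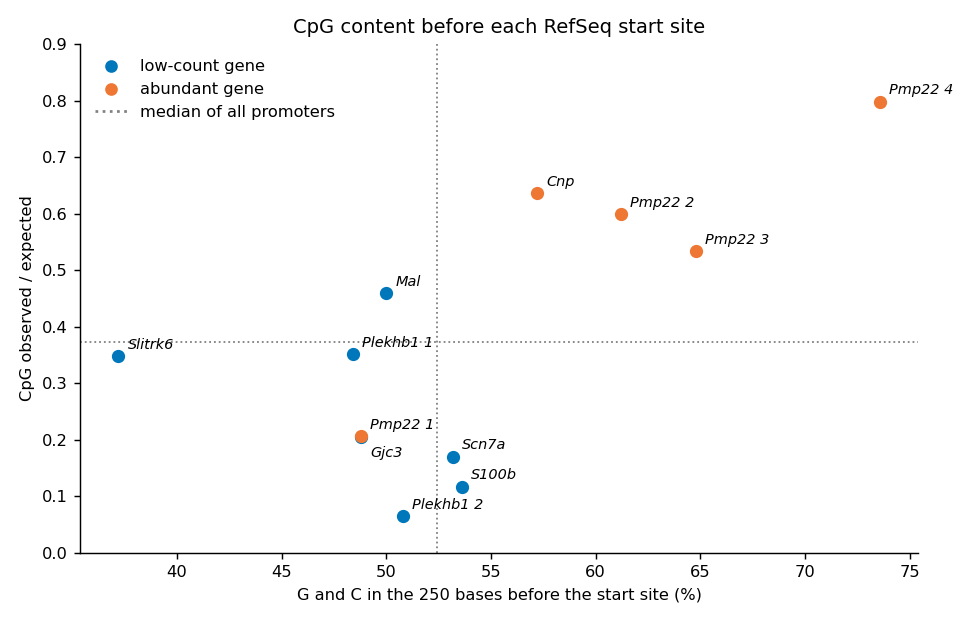
GC content (x axis, percent) and observed to expected CpG ratio (y axis) in the 250 bases before each of the 12 RefSeq start sites, with numbers after the symbol for genes with several starts and dotted lines at the medians of all 32851 promoters. The point of *Gjc3* lies just under that of *Pmp22* start 1, and the other *Pmp22* starts and *Cnp* sit in the upper right.

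Letter matches to 4 short motifs were counted on both strands of the same windows. A SOX motif, AACAAT or ACAAAG, was found before 2 of the 12 starts, the second start of *Plekhb1* (230 bases before it) and that of *Cnp* (167 bases before it), and in 24.0% of all promoters. TATAAA was found before none of the 12 and in 12.4% of all promoters. The GC box GGGCGG was found before 4 of the 12 and in 32.7% of all promoters, and GGAATG, the letters bound by TEAD factors, before 4 of the 12 and in 12.6% of all promoters. A match of letters is no proof of a bound site.

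Among the membrane genes, 4 were at a low level in controls and had means between 10.2% and 17.0% of it in TGFβ1FKO fibroblasts. *Gjc3*, a connexin of myelinating glia, had normalised counts of 24.09, 23.37, 36.59 and 16.79 in control libraries 1 to 4. In TGFβ1FKO libraries 1 to 4 it had 2.03, 0, 4.98 and 3.32. These were 28, 22, 33 and 17 reads against 2, 0, 6 and 3 reads, and the groups did not overlap. The library at 0 allows up to 3 reads, or 3.107 normalised counts, by counting error alone. The mean was 25.2 ± 8.27 (SD, n = 4) in controls and 2.58 ± 2.10 (SD, n = 4) in TGFβ1FKO, which is 10.2% of the control level and a log2 fold change of -3.09 (SE 0.52) on the scale of log2(normalised count + 1). The added 1 understates the change of genes with so few reads.

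*Plekhb1*, a pleckstrin homology domain protein of internal membranes that is found in glia and photoreceptors, had 30.97, 68.00, 82.05 and 36.54 normalised counts in the control libraries and 9.12, 7.25, 1.66 and 12.19 in the TGFβ1FKO libraries. Controls 2 and 3 were well above controls 1 and 4, and every control library was above every TGFβ1FKO library. The mean was 54.4 ± 24.6 (SD, n = 4) against 7.56 ± 4.43 (SD, n = 4), 13.9% of the control level, with a log2 fold change of -2.80 (SE 0.48). *Slitrk6*, a leucine-rich repeat membrane protein known from neurite growth and the inner ear, had 41.29, 57.37, 77.62 and 18.76 normalised counts in controls and 8.11, 6.21, 9.96 and 8.86 in TGFβ1FKO. The TGFβ1FKO libraries of *Slitrk6* lay close together, and control 4 was the nearest to them. Its mean was 48.8 ± 24.9 (SD, n = 4) against 8.29 ± 1.58 (SD, n = 4), 17.0% of the control level, with a log2 fold change of -2.27 (SE 0.38).

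*Mal*, a tetraspan proteolipid of the MARVEL family that is part of compact myelin, had 2.58, 26.56, 26.61 and 4.94 normalised counts in the control libraries. In the TGFβ1FKO libraries it had 1.01, 2.07, 3.32 and 1.11. Controls 2 and 3 were alone in holding more than 5 reads of *Mal*, at 25 and 24, and control 1 lay below TGFβ1FKO library 3, so that the groups overlapped. The mean was 15.2 ± 13.2 (SD, n = 4) in controls and 1.88 ± 1.07 (SD, n = 4) in TGFβ1FKO, with a log2 fold change of -2.04 (SE 0.67). The highest control was 10.3 times the lowest, the widest span among the 8 genes in controls, and the SD over the controls was 3.38 times what counting alone gives.

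The other 2 low-count genes, *S100b* and *Scn7a*, were closer between the groups. *S100b*, a calcium-binding protein found in Schwann cells and astrocytes, had 43.87, 46.75, 58.77 and 41.48 normalised counts in controls and 33.45, 17.61, 24.91 and 38.78 in TGFβ1FKO. Control 4 and TGFβ1FKO library 4 differed by only 42 against 35 reads, but no library of one group reached the other. The mean was 47.7 ± 7.68 (SD, n = 4) against 28.7 ± 9.34 (SD, n = 4), 60.1% of the control level, with a log2 fold change of -0.76 (SE 0.25). *Scn7a*, a sodium channel relative that senses sodium and is found in glia and in non-myelinating Schwann cells, had 67.1, 112.62, 121.97 and 89.87 in controls and 50.68, 30.03, 89.68 and 52.07 in TGFβ1FKO. TGFβ1FKO library 3 lay at the level of control 4 and above control 1, so the groups overlapped. The mean was 97.9 ± 24.6 (SD, n = 4) against 55.6 ± 24.8 (SD, n = 4), 56.8% of the control level, with a log2 fold change of -0.87 (SE 0.29).

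The 2 abundant genes of the set lay near 0 change. *Pmp22*, a tetraspan protein of compact peripheral myelin that was also found as a growth arrest gene of fibroblasts, had 6342.9, 6944.5, 7243 and 8037.2 normalised counts in controls and 6794.3, 8820.4, 6403.8 and 7868.5 in TGFβ1FKO. The groups were interleaved. Its mean was 7142 ± 705 (SD, n = 4) against 7472 ± 1092 (SD, n = 4), a log2 fold change of 0.06 (SE 0.10), and 97.6% of the genes had a lower mean count. *Cnp*, the cyclic nucleotide phosphodiesterase of uncompacted myelin, had 439.61, 450.5, 460.17 and 463.19 in controls and 412.54, 449.46, 399.41 and 426.55 in TGFβ1FKO. TGFβ1FKO library 2 lay among the controls and the other 3 below them. The log2 fold change of *Cnp* was -0.10 (SE 0.07).

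**Figure D2:**
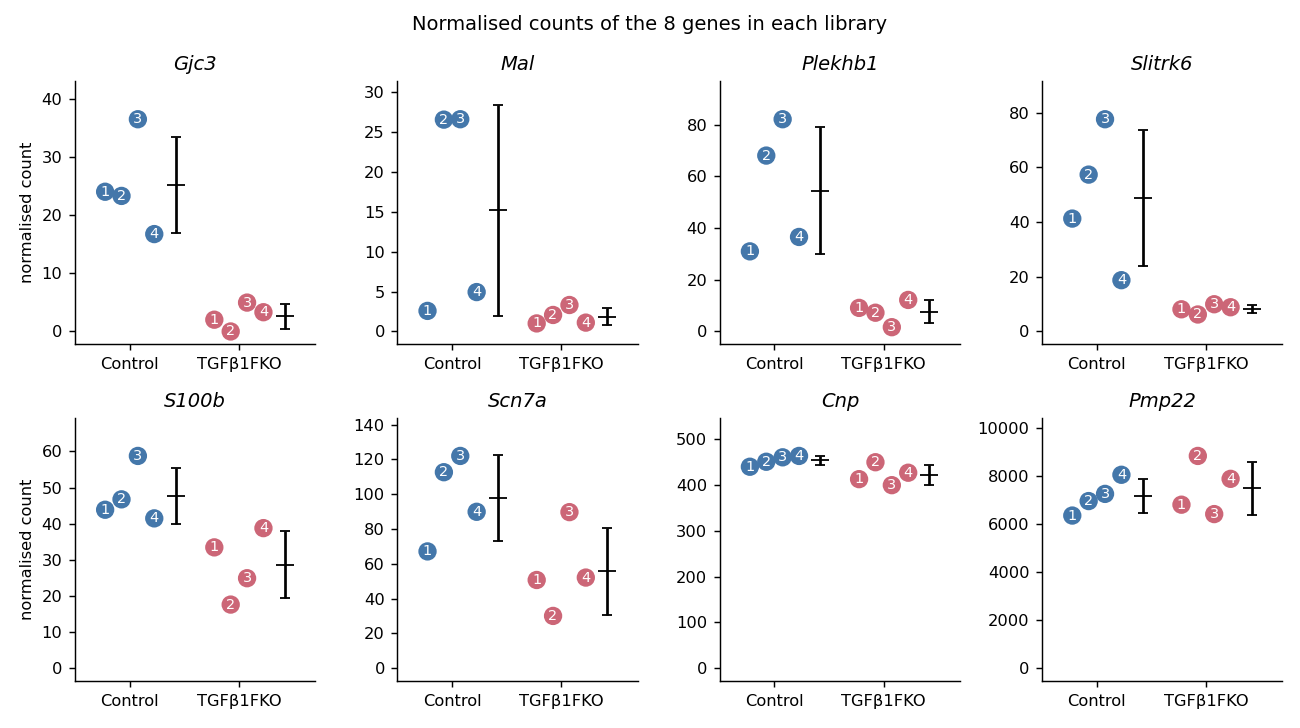
Normalised counts (y axis, linear, a separate scale for each gene) of the 8 genes in the 4 control and 4 TGFβ1FKO libraries, with the library number in each point and the group mean ± SD beside the points. *Gjc3*, *Plekhb1*, *Slitrk6* and *S100b* do not overlap between the groups, while *Mal*, *Scn7a*, *Cnp* and *Pmp22* do.

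Compared per length, the genes of the set spanned a wide range in controls. Per kb of exon, *Pmp22* was at 3034 normalised counts and *Cnp* at 125. *S100b* followed at 32.2, *Plekhb1* at 14.6, *Scn7a* at 13.3, *Slitrk6* at 11.5, *Gjc3* at 5.79 and *Mal* at 5.46. The control libraries of *Pmp22*, *Cnp*, *S100b* and *Plekhb1* did not overlap between neighbours in this order, whereas from *Plekhb1* down each gene overlapped the next. In TGFβ1FKO fibroblasts the per-kb level was 3174 for *Pmp22*, 116 for *Cnp*, 19.3 for *S100b* and 7.58 for *Scn7a*. *Plekhb1* came next at 2.03 and *Slitrk6* at 1.95, and *Mal* (0.676) and *Gjc3* (0.593) were last. *S100b* and *Scn7a* overlapped slightly in TGFβ1FKO, *Scn7a* and *Plekhb1* did not, and the pairs *Plekhb1* and *Slitrk6*, and *Mal* and *Gjc3*, did.

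**Figure D3:**
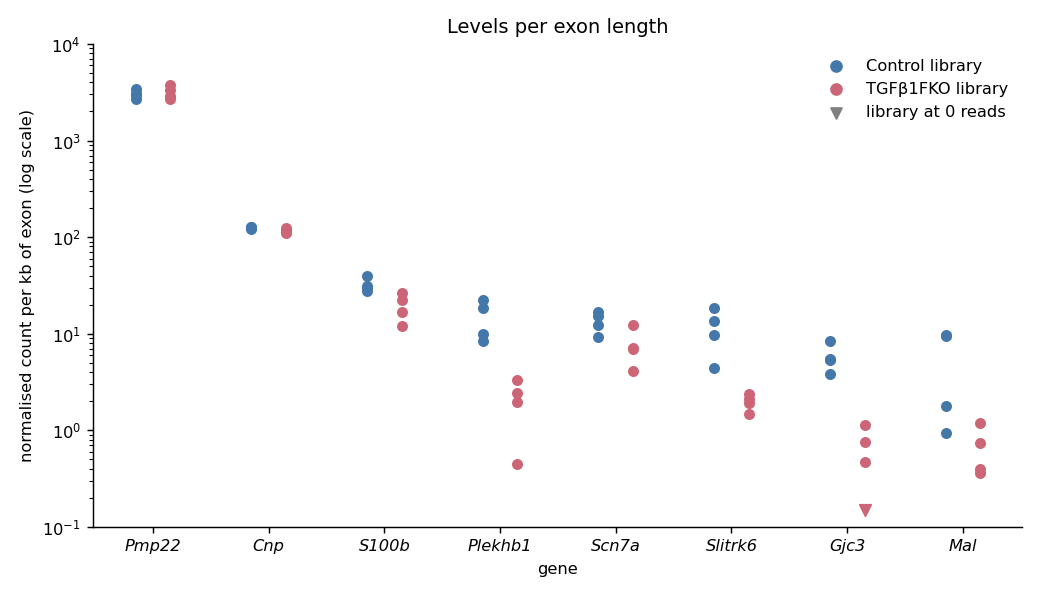
Normalised count per kb of exon (y axis, log scale) of each gene in each control and TGFβ1FKO library, ordered by the control mean, with a triangle at the bottom for the 1 library at 0 reads. *Pmp22* and *Cnp* stand above the 6 low-count genes in both groups.

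Of the 8 genes, 7 were lower and 1 was higher in TGFβ1FKO, with a median of -1.46 on the log2 scale where the median over all genes was 0.003. None of the 8 passed limma's thresholds (adjusted p under 0.05 with an absolute change above 0.6 on the log2 scale), which 0.086% of all genes passed and 0.0794% in the lower direction. At an unadjusted p under 0.05 in limma there were 6 of the 8, against 7.46% of all genes. On the recovered reads, *Gjc3*, *Plekhb1* and *Slitrk6* passed in edgeR's quasi-likelihood test, in DESeq2 against 0 and in DESeq2 against 0.6, which 0.132%, 0.371% and 0.0993% of all genes did. The groups did not overlap in 4 of the 8, all lower, against 2.1% of all genes lower and 3.79% in either direction. Because the same values chose the genes, these counts are no evidence about them. Low level alone went with a wider range of changes. Of the 3550 genes with a mean under 50 normalised counts, 90% had log2 fold changes between -0.89 and 0.66. Below -2 were 24 of them (0.676%), and *Gjc3*, *Mal*, *Plekhb1* and *Slitrk6* are themselves among these 24. For genes with a mean from 50 up to the median of all genes, the 90% range was -0.35 to 0.27. At or above that median it was -0.15 to 0.17. *Scn7a* (mean 76.8, log2 fold change -0.87) is of the middle level and lies outside its range. *S100b*, *Cnp* and *Pmp22* lie within the ranges of their levels.

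**Figure D4:**
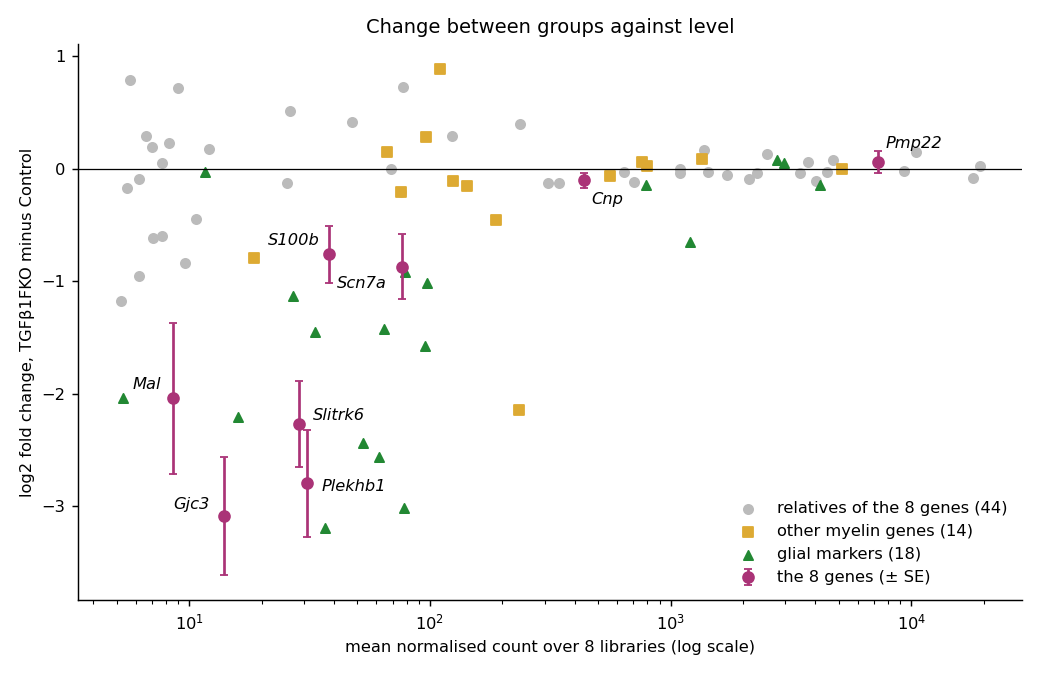
Log2 fold change (y axis, TGFβ1FKO minus control) against the mean normalised count over the 8 libraries (x axis, log scale) for the 8 genes with SE bars, 18 glial markers, 14 other myelin genes and 44 relatives of the 8 genes. *Pmp22* and *Cnp* sit near 0 at the right, and the 6 low-count genes lie below 0, as do 16 of the 18 glial markers.

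The 6 low-count genes were alike in their highest control and less so in TGFβ1FKO. Their summed normalised count was 209.9, 334.7, 403.6 and 208.4 in control libraries 1 to 4 and 104.4, 63.2, 134.5 and 116.3 in TGFβ1FKO libraries 1 to 4. Control 3 was the highest control for all 6, although it had the fewest reads of the controls. For *Mal* control 2 was level with it, at 26.56 against 26.61 normalised counts. Being highest in control 3 was not particular to the 6. It also held for *Sox10*, *Foxd3* and the endothelial *Pecam1*, though not for *Tek* or *Matn2*. The lowest control was library 1 for 3 genes and library 4 for the other 3. Among the TGFβ1FKO libraries, library 3 was the highest for 4 of the 6 and library 2 the lowest for 4. *Plekhb1* went the other way in TGFβ1FKO library 3, where it was at its lowest. With any 1 library left out, the log2 fold change of each of the 6 stayed below 0. It ranged from -3.42 to -2.56 for *Gjc3*, from -3.08 to -2.31 for *Plekhb1*, from -2.66 to -1.99 for *Slitrk6* and from -2.59 to -1.61 for *Mal*. For *S100b* it ranged from -0.92 to -0.56 and for *Scn7a* from -1.13 to -0.62.

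Deviations from the group means leave out the difference between the groups. Over the 8 libraries, which share their depth and preparation across genes, 13 of the 15 pairs of low-count genes had a positive Pearson r, with a median of 0.49 and a range from -0.21 to 0.84. The highest was between *Gjc3* and *Scn7a*, and the lowest between *Plekhb1* and *Scn7a*. With *Sox10*, the r of the deviations was 0.86 for *Gjc3*, 0.84 for *S100b*, 0.84 for *Slitrk6*, 0.63 for *Scn7a*, 0.35 for *Mal* and 0.27 for *Plekhb1*. *Pmp22* and *Cnp* deviated with each other (0.97). Against the 6 low-count genes, the r of *Pmp22* ran from -0.69 with *Gjc3* to 0.44 with *Plekhb1*, and that of *Cnp* from -0.75 to 0.54 with the same genes. In controls the SD of *Cnp* was 0.499 of what counting alone gives, so its deviations there carry little beyond counting. Against the 6 low-count genes, r ran from -0.17 (*S100b*) to 0.71 (*Mal*) for *Foxd3*. For *Cdh19*, named after its values were seen, it ran from -0.10 (*Plekhb1*) to 0.79 (*Slitrk6*). It ran from 0.14 (*Plekhb1*) to 0.86 (*Slitrk6*) for *Cadm4* and from 0.20 (*Scn7a*) to 0.83 (*Slitrk6*) for *Erbb3*. With 8 libraries and few reads these coefficients are a description. Low-count genes outside the glial and myelin lists were not compared in this way.

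**Figure D5:**
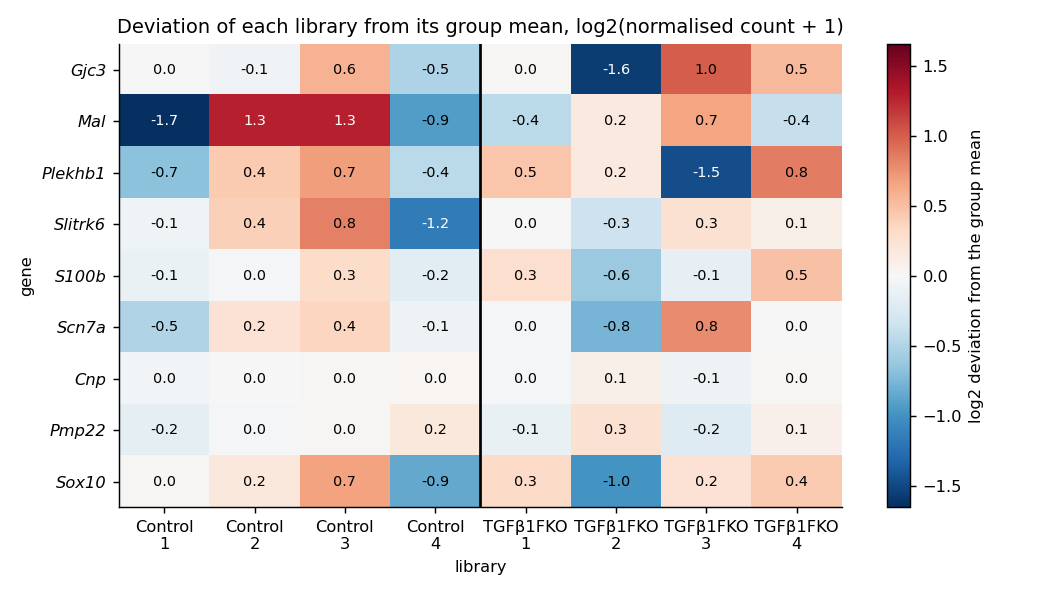
Deviation of each library from the mean of its group, on the log2(normalised count + 1) scale, for the 8 genes and *Sox10* (rows) in the 8 libraries (columns). Control 3 is above its group mean in all 6 low-count genes and in *Sox10*, and *Cnp* and *Pmp22* stay within 0.3 of theirs.

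The 5 genes of the table whose profile over all 8 libraries was most like the mean profile of the 6 low-count genes were *Fgf5* (Pearson r 0.98), *Cadm1* (0.98), *Lingo3* (0.98), *Sema4f* (0.98) and *Ttyh1* (0.98). The likeness includes the difference between the groups. *Fgf5* is a secreted growth factor and *Cadm1* an adhesion molecule, and their log2 fold changes were -3.11 and -2.22. *Lingo3* (-2.71), *Sema4f* (-2.12) and *Ttyh1* (-2.19) encode membrane proteins, and all 5 had means over the 8 libraries between 7.62 and 64.2 normalised counts. *Sox10* was next in the order.

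The reads of each low-count gene can also be set against those of *Sox10*, which restates their fold changes beside that of *Sox10*. *Sox10* had 132.48, 147.69, 207.35 and 72.10 normalised counts in controls and 19.26, 7.25, 18.27 and 21.05 in TGFβ1FKO. For 1 read of *Sox10* there were between 0.158 and 0.233 reads of *Gjc3* in controls and between 0 and 0.273 in TGFβ1FKO, and the ranges of *Mal* (0.0195 to 0.180 and 0.0526 to 0.286) and *Plekhb1* (0.234 to 0.507 and 0.0909 to 1) also overlapped. *Slitrk6* stood at 0.260 to 0.388 in controls and at 0.421 to 0.857 in TGFβ1FKO. *S100b* stood at 0.283 to 0.575 reads for each read of *Sox10* in controls and at 1.36 to 2.43 in TGFβ1FKO. For *Scn7a* the ranges were 0.506 to 1.25 and 2.47 to 4.91. The TGFβ1FKO ratios rest on between 7 and 22 reads of *Sox10* in a library, and no grouping of the genes is drawn from them.

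Other genes of myelin gave a divided picture. Of 30 further myelin genes, 14 were in the table. *Mag*, *Pllp*, *Fa2h*, *Ncmap* and *Pou3f1* were among the 16 that were not in the table used here. Of the 14, 7 were lower and 7 higher in TGFβ1FKO, with a median of -0.03 on the log2 scale. None was called by limma or edgeR, which called 0.086% and 0.132% of all genes. DESeq2 against 0 called 1 (*Cadm4*), and 0.371% of all genes. At an unadjusted p under 0.05 in limma there were 4, against 7.46% of all genes. *Cadm4*, the adhesion molecule by which Schwann cell membrane holds the axon, had 217.65, 501.50, 701.90 and 147.15 normalised counts in controls and 98.32, 51.78, 114.59 and 48.75 in TGFβ1FKO. The groups did not overlap, and controls 2 and 3 were again the highest (log2 fold change -2.14, SE 0.43, adjusted p = 0.125, limma). *Gal3st1*, which makes the myelin lipid sulfatide, also did not overlap (-0.80 on the log2 scale, adjusted p = 0.632 in limma). *Tspan2*, a tetraspanin of myelinating glia, did not overlap in the higher direction, with 84.31, 97.75, 96.47 and 69.13 normalised counts in controls and 98.32, 112.88, 110.44 and 99.71 in TGFβ1FKO (0.29 on the log2 scale, adjusted p = 0.682 in limma). *Cntn2*, an axonal and glial adhesion molecule, was at 76.8 ± 30.8 (SD, n = 4) in controls and 144 ± 64.3 (SD, n = 4) in TGFβ1FKO (log2 fold change 0.88, adjusted p = 0.647, limma). *Mbp*, the cytoplasmic glue of compact myelin, was at -0.45 on the log2 scale (adjusted p = 0.459 in limma). *Egr2* (-0.07) and *Cd9*, the most abundant gene of the list at 5145 ± 432 (SD, n = 4) in controls (0.00), were near no change. *Mbp*, *Tspan2* and *Egr2* are named here beside those that the naming rule gave, after their values were seen.

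Of 20 glial markers, 18 were in the table, and *Gfap* was among the 2 that were not in the table used here. In TGFβ1FKO 16 were lower and 2 higher, and their median was -1.28 on the log2 scale. At an unadjusted p under 0.05 in limma there were 13, against 7.46% of all genes. Of all genes, limma called 0.086% and edgeR 0.132%. *Sox10* (log2 fold change -3.01, adjusted p = 0.00499) and *Foxd3*, a transcription factor of the neural crest and its glia (-3.20, adjusted p = 0.00757), were called by limma with Benjamini-Hochberg adjustment. *Erbb3*, the neuregulin receptor of Schwann cells, was at -2.56 on the log2 scale (adjusted p = 0.0714 in limma) and was called by edgeR. The list's sum was between 12592 and 13599 normalised counts in controls and between 11112 and 12774 in TGFβ1FKO, of which *Matn2* (-0.15) alone was 4367 ± 256 (SD, n = 4) in controls. *Ncam1* (0.07), *Cryab* (0.05), *Fabp7* (-0.03) and *Sema3b* (-0.14), named after their values were seen, were also near 0. This list was chosen with results of these libraries known.

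Relatives of the 8 genes were in the table with 44 entries, and none of the 6 family lists held a gene called by limma, edgeR or DESeq2. Over all genes the shares called were 0.086% (limma), 0.132% (edgeR), 0.371% (DESeq2 against 0) and 0.0993% (DESeq2 against 0.6). With shares so small, 0 called in 44 entries says little about the relatives. An unadjusted p under 0.05 in limma was found for 7.46% of all genes. Among 6 connexins in the table, *Gja1*, the main connexin of fibroblasts, had a log2 fold change of -0.04, *Gjc1* of -0.13 and *Gjb2* of 0.18 (median -0.11, 0 with an unadjusted p under 0.05). The 6 sodium channel genes had a median of -0.27 and 1 with an unadjusted p under 0.05 (*Scn3a* at -0.96, named after its values were seen), with *Scn8a* at -0.44 and *Scn3b* at 0.41. The 9 MARVEL family genes had a median of -0.04 and 2 with an unadjusted p under 0.05, *Myadm* (0.15) and *Cmtm4* (0.17), and *Cmtm7* was at -0.12. In the family of *Pmp22*, *Emp1* (-0.09) and *Emp2* (0.13) were near 0 and *Perp*, a desmosome protein, was at 0.73 (adjusted p = 0.357, limma), the 1 of 5 with an unadjusted p under 0.05. The 10 S100 genes had a median of -0.03 and 0 with an unadjusted p under 0.05, with *S100a6* at 0.03, *S100a10* at -0.03, *S100a1* at -0.13 and *S100a4* at 0.29. The log2 fold changes of the 8 SLITRK and other leucine-rich repeat genes ran from -0.84 to 0.51, 5 above 0 and 3 below it (median 0.07). *Flrt3* (0.40) alone had an unadjusted p under 0.05, and *Lrrtm3* was at 0.51 and *Flrt2* at 0.08. The 3 genes below 0 had means under 10 normalised counts and so are not named. The difference between these relatives and the 8 genes was not tested.

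Markers of other cell types differed in how many were in the table. All 10 endothelial markers were in the table and all were lower in TGFβ1FKO, with a median of -0.55 on the log2 scale, 2 with an unadjusted p under 0.05 in limma (*Pecam1* and *Cldn5*) and none called by limma, edgeR or DESeq2. *Pecam1* was at 50.8 ± 19.6 (SD, n = 4) and 25.4 ± 13.1 (SD, n = 4) normalised counts, and *Cldn5* (-1.24), *Tie1* (-0.80) and *Tek* (-0.28) were lower by their mean too. The endothelial sum was between 592.6 and 907.4 in controls and between 570.7 and 628.6 in TGFβ1FKO. Its part in the values of the 8 genes was not tested. Of 10 melanocyte markers 3 were in the table, *Mitf* (0.11), *Pmel* (-0.08) and *Mlana* (-0.33), and *Dct*, *Tyr* and *Tyrp1* were not in the table used here. Of 10 macrophage markers 4 were in the table, 2 lower and 2 higher in TGFβ1FKO. *Lyz2* was at -0.39, *Cd68* at -0.31, *Csf1r* at 0.05 and *Mrc1*, named after its values were seen, at 0.39. *Ptprc* and *Adgre1* were not in the table used here. Of 10 keratinocyte markers 5 were in the table, 3 higher and 2 lower in TGFβ1FKO. *Dsp* (1.01), *Perp* (0.73) and *Trp63* (0.57) had an unadjusted p under 0.05 in limma, as did 7.46% of all genes. *Krt10* (-0.0007) and *Cdh1* (-0.01), named after their values were seen, were near no change. The sum of the 5 was between 159.4 and 209.4 in controls and between 236.2 and 297.2 in TGFβ1FKO. *Krt5* and *Krt14* were not in the table used here. Of 11 neuron markers 2 were in the table, *Tubb3* (-0.18), at 589 ± 180 (SD, n = 4) in controls, and *Stmn2* (0.11). No marker of these 4 lists was called by limma, edgeR or DESeq2, and outside the keratinocyte list 0 had an unadjusted p under 0.05 in limma. Over all genes, limma called 0.086%, edgeR 0.132% and DESeq2 against 0 0.371%. With shares so small, 0 called in these lists or in the endothelial list says little.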

How the data were processed

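Per the submitters' processing notes, the authors used CASAVA 1.8, HISAT2 2.0.5 with GRCm38 (mm10), featureCounts 1.5.0-p3, R 4.3.2 and DESeq2 1.42.0, and left out genes with few reads in all. The deposited signal is a read count divided by DESeq2's size factor with 0.5 added. The authors also deposited, per gene, a mean signal, the log2 fold change and its error, a score (the statistic of their test) and p-values, and none of these were used.

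After 0.5 was subtracted, 100% of the values in each library were whole reads within 0.01 read, and the lowest sum over the libraries was 41 reads. Groups follow the labels. The log2(normalised count + 1) values of 15111 genes were compared in limma 3.58.1 (R 4.3.3) with a mean-variance trend, since the deposited values are not raw counts. A gene was called when its Benjamini-Hochberg adjusted p was under 0.05 and its log2 fold change exceeded 0.6 in size. Recovered reads were tested with edgeR 4.0.16 and DESeq2 1.42.0. The tests were checked on simulated data, with changes planted only in genes with a mean of at least 50 normalised counts. Of the 8 genes, 5 have a mean under 50, so the check says little about the tests at their level. Further alternatives were TMM scaling, pseudocounts of 0.5 and 5, a minimum of 10 reads per library, a replicate block and leaving out each library. Within a group, no library was a copy of another (chi-square over degrees of freedom 4.89 or more). Exon lengths and positions are from GENCODE M21. The limit for 0 reads covers counting error only, because reads copied by PCR are not independent.

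The 8 genes and all lists were chosen with earlier results of these data known. Low-count genes have a mean under the median of all genes, 345.37 normalised counts. Named genes are the 8, called list members, the 3 with the largest change at a mean of at least 10 and the most abundant one in each list, the 5 most alike genes and *Tgfb1*. Some further genes are not reported here.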

Additional observations from a re-analysis of the deposited data

Results flagged for a closer look

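In 110 groups of 4 libraries (55 named genes in both genotypes), the highest or lowest library stood apart from the others by Dixon's criterion in 5, where chance alone gives about 5.5. None of the 5 was one of the 8 myelin and Schwann cell membrane genes. *Erbb3* was at 27.37 normalised counts in TGFβ1FKO library 1 and between 11.1 and 12.5 in the other TGFβ1FKO libraries. *Gjb2*, a connexin, was at 21.59 in TGFβ1FKO library 3 and between 9.32 and 10.1 in the others. The remaining 3 stood apart in control 4, the library with the lowest *Sox10* of the controls. *S100a10* was at 4015 there and between 4603 and 4714 in the other controls, *Tubb3* at 322 against 655.5 to 707.5, and *Mlana*, a melanocyte marker, at 88.89 against 16.3 to 27.6.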

How the results depend on the processing

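The number of all genes called moved from 13 to 20 with edgeR, 56 with DESeq2 against 0, 3 under the minimum of 10 reads per library (12946 genes) and 31 with the replicate block, and to between 5 and 32 with each library left out (5 without control 3, TGFβ1FKO 2 or TGFβ1FKO 4, and 32 without control 4). Of the 8 genes 0 were called by limma, 3 by edgeR and by DESeq2 against 0 and against 0.6 (*Gjc3*, *Plekhb1*, *Slitrk6*), 2 at a pseudocount of 5 (*Gjc3*, *Plekhb1*) and 2 with the replicate block (*Gjc3*, *Slitrk6*). With a library left out, between 0 and 2 were called, 2 without control 4 (*Plekhb1*, *Slitrk6*) and 1 without TGFβ1FKO 3 (*Gjc3*). Over all genes the number called was 15 with DESeq2 against 0.6, 16 at a pseudocount of 5 and 10 without TGFβ1FKO 3. Of the other myelin genes, 0 were called by limma, 1 by DESeq2 against 0 (*Cadm4*), 2 with the replicate block (*Cadm4*, *Cntn2*) and between 0 and 1 with a library left out (*Cadm4* without control 4). Of the glial markers, 2 were called by limma, 9 by DESeq2 against 0, 6 with the replicate block, 0 under the minimum of 10 reads (which leaves out genes) and between 2 and 7 with a library left out (7 without control 4). Where not named, the cause was not tested. No pairing of the libraries by replicate number was seen, but 4 pairs are too few to exclude one. Over 11561 genes the same-numbered deviations correlated at -0.13 to 0.16, and 0 of 4 controls correlated best with their own number.

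The log2 fold changes of *Gjc3*, *Mal*, *Plekhb1*, *S100b*, *Scn7a*, *Slitrk6* and *Cnp* kept their sign under every alternative that could be fitted. That of *Pmp22* turned to -0.02 without TGFβ1FKO 2. *Gjc3* moved to -2.00 at a pseudocount of 5. The filter of 10 reads left out 4 of the 8 genes. Counting limits *Gjc3* and *Mal* most, with 11 and 8 reads over the 4 TGFβ1FKO libraries.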
